A study of Mus musculus with 14 samples.

Results

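Fibroblasts grown out of pieces of mouse dorsal skin were compared between mice labelled Rel -/- and wild-type mice, by RNA sequencing of 5 of the 14 libraries of a study on c-Rel. The other 9 libraries came from lung cultures. Wild-type skin is represented by the libraries numbered 11 and 22, and skin labelled Rel-null by 18, 19 and 20, all assigned from their titles. The mice were given as C57BL/6J males, aged 8 to 10 weeks. Skin fragments adhered to plastic and were taken away after 7 days, and the cells that had spread onto the dish were scraped off on day 14. The cultures received no stimulus, and no cell sort is given in the sources used here, so each library holds RNA of everything that adhered. Fewer cells of a type and less RNA per cell cannot be told apart in such bulk libraries. Whether replicate libraries stem from different mice is not stated, and the p-values therefore reflect only how far these libraries differ, which may be technical.

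Rel encodes c-Rel, a subunit of the transcription factor NF-kappaB, which is held in the cytoplasm by inhibitor proteins and enters the nucleus after signals from cytokine and pathogen receptors. Its dimers bind kappaB sites and switch on cytokine, chemokine and survival genes. Dermal fibroblasts build the collagen matrix of the skin. A skin explant also contains keratinocytes, which carry paired keratins and desmosomes, as well as fat cells, muscle, nerve sheath cells and macrophages, and any of these can leave the tissue beside the fibroblasts.

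The deposited table gave read counts for 48795 genes, and the 5 skin libraries held 2663437 to 28686474 counts, library 22 being the lowest. Levels below are in CPM, the usual count-per-library unit, on totals scaled by the TMM method. One count was worth 0.320 CPM in library 22 and at most 0.0721 CPM in the others. A gene was missing, with 0 counts where the other 4 skin libraries averaged at least 5 CPM, for 7.72% of such genes in wild-type 11, 2.95% in 18, 0.696% in wild-type 22, and under 0.1% in 19 and 20. Across 11142 genes the libraries 19 and 20 correlated at r = 0.969 on a log2 scale, while 18 correlated with them at 0.869 and 0.863. The wild-type libraries correlated with each other at only 0.727, below the 0.815 and 0.787 of wild-type 11 with 19 and 20, although genes are no independent replicates. Counts of every pair differed by more than sampling noise, 19 and 20 being closest with a chi-square of 33.1 per degree of freedom.

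Rel itself did not follow the labels. Its level was 11.3 CPM in wild-type 11 and 9.27 CPM in wild-type 22, against 0.0334 CPM in library 18, 9.08 CPM in 19 and 8.72 CPM in 20. Library 18 held a single Rel count, whereas the values of 19 and 20, although below both wild-type ones, were close to that of wild-type 22, whose value rested on 29 counts. For Rel the fitted log2 fold change came to -0.80 ± 1.62 (SE), at an edgeR adjusted p of 0.987. The group is therefore called "labelled Rel-null" throughout, and every direction follows the label and not the level of Rel. A pair of genes picked from these data as following the genotype label in the lung libraries set 18 apart from 19 and 20, Rps3a3 reading 318 CPM in 18 against at most 1.60 CPM in the other skin libraries, and Tpm3-rs7 1.64 CPM in 18 against 57.9 to 124 CPM. Both have close relatives in the genome, so their counts are uncertain. The animals were described as male, yet wild-type 22 read Xist, a transcript made by the silenced X chromosome, at 623 CPM and had 3 counts of the Y-linked Ddx3y, where the other 4 libraries had no Xist and 32.6 to 73.7 CPM of Ddx3y.

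The other subunits were read in every library. Rela, the main partner in canonical signalling, stood at 162 and 52.7 CPM in wild-type 11 and 22, and at 48.4, 81.1 and 63.7 CPM in 18, 19 and 20, with overlapping groups. Nfkb1, the p105 and p50 precursor gene, also overlapped, with wild-type values of 149 and 58.2 CPM beside 92.2, 99.4 and 103 CPM. Relb and Nfkb2, the subunits of the alternative pathway, were higher in all 3 labelled Rel-null libraries than in both wild-type ones. For Relb the values were 40.6 and 14.4 CPM against 41.9, 44.2 and 41.5 CPM, nearly level with wild-type 11. For Nfkb2 they were 72.4 and 40.3 CPM against 81.7, 85.2 and 81.0 CPM, so the gap to wild-type 11 was small there too.

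Of 16408 genes tested with edgeR, 0 passed an adjusted p of 0.05 (0% of those tested). At an unadjusted p under 0.05 there were 599 higher genes (3.65%) and 425 lower genes (2.59%). Together these were 1024, where 820 would be expected by chance. After adjustment, DESeq2 called 145 and limma-voom 300. The smallest adjusted p was 0.0513 and 10 genes lay under 0.1. The median log2 fold change over all tested genes was 0.01. Without regard to a model, 2429 tested genes (14.8%) were higher in all 3 labelled Rel-null libraries than in both wild-type ones and 1689 (10.3%) were lower in all 3. For a single gene, 3 against 2 libraries cannot reach a two-sided exact permutation p below 0.2.

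A stricter description asked for a gap of at least 2-fold between the nearest libraries of the groups, among the 11142 genes with a group mean of 5 CPM or more. By this rule 351 genes (3.15%) were higher in the labelled Rel-null libraries and 152 (1.36%) were lower. Many had no counts on the low side, with 137 of the higher genes at 0 in wild-type 11, 68 at 0 in wild-type 22 and 40 at 0 in both. Of the lower genes, 61 were at 0 in library 18, 3 in 19 and 6 in 20. Among genes with at least 1 count in every skin library, an alternative chosen after the data were seen, 186 were higher and 90 lower. With library 18 as the only labelled Rel-null library the counts were 1317 and 1422, but the rule is easier to meet with 1 library than with 3. Of the 351 higher genes, 39 belonged to the 73 epithelial genes described below, which is 11.1% of the parted genes and 53.4% of the epithelial ones. Among all 11142 genes of that level, 49 (0.440%) were epithelial. Epithelial genes near 0 in wild type could reach that level only through their labelled Rel-null mean. Ly6e, a GPI-anchored surface protein, and Rps13, a protein of the small ribosomal subunit, were chosen after their values were seen, as abundant members. Ly6e read 188 and 74.5 CPM against 445, 424 and 484 CPM in 18, 19 and 20. The most abundant lower gene, Plxnd1, a semaphorin receptor also named after its values were seen, read 166 and 220 CPM against 70.9, 73.9 and 67.1 CPM.

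The 12 protein-coding genes with the smallest p among those higher without overlap were Clu, Krt5, Spint2, Plau, Sema4a, Ptgis, Plac8, Krt14, Fcgr3, Krt8, Itgam and Krt17, with adjusted p-values from 0.0513 to 0.216 in edgeR. Values are given in the order wild-type 11 and 22, then 18, 19 and 20. Clu (ENSMUSG00000022037, GRCm38 chromosome 14, 65968483-65981547), which encodes the secreted chaperone clusterin, read 64.8 and 8.95 CPM against 2959, 1986 and 3474 CPM. The group means were 36.9 ± 39.5 CPM (SD, n = 2) and 2806 ± 756 CPM (n = 3), and the log2 fold change was 6.23 ± 0.96. All 3 labelled Rel-null libraries lay far above both wild-type ones, with 18 between 19 and 20.

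Krt5 (chromosome 15, 101707070-101712898), the type II keratin of basal keratinocytes, read 0.381 and 0.959 CPM against 413, 112 and 176 CPM. Its partner Krt14 (chromosome 11, 100203162-100207548) read 28.8 and 1.92 CPM against 1263, 352 and 509 CPM. Both were highest in library 18, with log2 fold changes of 8.75 ± 0.96 and 5.46 ± 0.99, the latter 8.55 without wild-type 11. Krt17, a keratin of hair follicles and stressed epidermis, was even across the labelled Rel-null libraries at 345, 244 and 359 CPM, against 1.82 and 1.28 CPM. Krt8, a keratin of simple epithelia, read 12.7 and 0.639 CPM against 253, 240 and 421 CPM. Spint2, a membrane inhibitor of serine proteases, read 0.0423 and 1.28 CPM against 101, 72.5 and 118 CPM, a log2 fold change of 8.10 ± 1.32. None of these 5 genes overlapped between the groups, as the choice of leading genes required.

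Plau (chromosome 14, 20836660-20843385), the urokinase that activates plasminogen, read 25.8 and 53.4 CPM against 346, 250 and 456 CPM, with a log2 fold change of 3.16 ± 0.54. Ptgis, prostacyclin synthase, read 37.6 and 22.1 CPM against 395, 273 and 277 CPM (3.39 ± 0.62). Plac8, a small cysteine-rich protein, read 42.1 and 13.7 CPM against 317, 259 and 139 CPM (3.07 ± 0.58). These 3 genes were plainly read in both wild-type libraries, so their differences did not rest on an absent signal. Sema4a, a semaphorin, rested on 1 wild-type count against 927 counts, a ratio of 412 with a 95% counting interval of 73.8 to 16307. The macrophage genes among the 12 were low. Itgam, an integrin of myeloid cells, had 1 wild-type count and read 12.2, 2.27 and 1.87 CPM in 18, 19 and 20, and Fcgr3, an antibody receptor, read 0.762 and 0.639 CPM against 17.6, 4.91 and 5.84 CPM. Both were highest in library 18.

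The 12 leading lower genes were Mgll, Txndc16, Abcc5, Il21r, Slc25a36, Ddit3, Pfkfb4, Smarcd3, Ino80, Nav2, Cdo1 and Plekhg1, with adjusted p-values from 0.0513 to 0.430. Mgll (chromosome 6, 88724412-88828360), the lipase that cleaves monoacylglycerol, read 47.0 and 16.6 CPM against 2.84, 3.87 and 3.03 CPM. Its log2 fold change was -3.30 ± 0.54, and the 3 low values were nearly level. Abcc5, an exporter of organic anions, read 152 and 119 CPM against 54.4, 39.9 and 50.2 CPM (-1.50 ± 0.32). Txndc16, a thioredoxin-domain protein, read 76.5 and 59.8 CPM against 13.9, 28.1 and 19.0 CPM. For these last 2 genes the wild-type values lay close together and well above every labelled Rel-null value.

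Ddit3 (chromosome 10, 127290774-127296288), the stress transcription factor CHOP, read 54.2 and 68.1 CPM against 17.6, 9.94 and 8.14 CPM, a log2 fold change of -2.36 ± 0.56. Slc25a36, a mitochondrial carrier of pyrimidine nucleotides, read 104 and 97.2 CPM against 20.1, 39.1 and 32.8 CPM. Pfkfb4, an enzyme that sets the level of the glycolytic activator fructose-2,6-bisphosphate, read 34.0 and 26.2 CPM against 5.61, 8.65 and 6.63 CPM. These 3 genes had near-equal wild-type values. Smarcd3, a chromatin remodelling subunit, read 31.4 and 24.6 CPM against 1.74, 7.85 and 3.75 CPM. Ino80, the ATPase of another remodelling complex, read 75.4 and 37.4 CPM against 8.82, 15.5 and 13.9 CPM. Both were lowest in library 18. For Nav2, Cdo1 and Plekhg1 the wild-type libraries differed widely: Cdo1, which oxidises cysteine, read 129 and 15.3 CPM, and Plekhg1 15.2 and 70.3 CPM, while their highest labelled Rel-null values were 10.2 and 8.59 CPM.

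**Figure D1:**
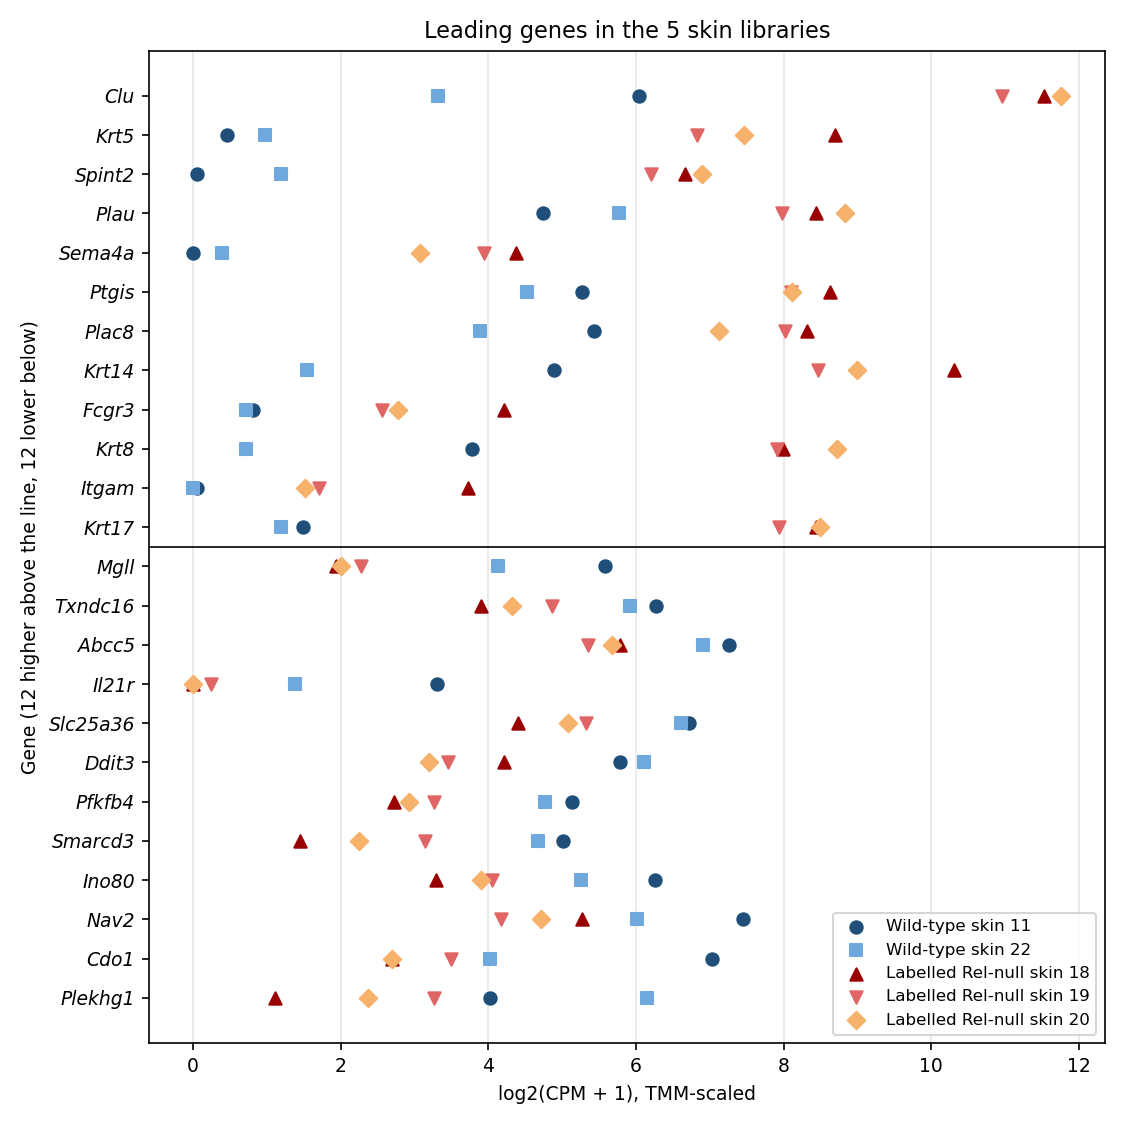
Level of the 24 leading genes in each skin library, as log2(CPM + 1) on the horizontal axis, with 1 marker per library and no averaging. For every gene the 3 labelled Rel-null markers lie on 1 side of both wild-type markers, as the choice of genes required, and for Clu they sit between 1986 and 3474 CPM against 64.8 and 8.95 CPM.

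Start-site sequence was read for a leading gene of each direction, because a c-Rel comparison invites a look for kappaB letters. RefSeq windows of 300 bases (250 before to 50 after an annotated start, GRCm38.p6) lay within 300 bases of the annotated gene start for 13 of the 24 leading genes, in 14 windows. On both strands, GGANTTTCC, letters of a kappaB site, was found in 0 of the 14 windows and in 1.24% of 16425 such windows genome-wide. With so few windows, 0 cannot be told apart from that share. A Krt14 window outside the limit, 1518 bases from the annotated gene start, did hold these letters. TGANTCA, letters of an AP-1 site, was found in 1 of the 14 (7.14%) and in 6.78% of all. The 250 bases before the start are shown for Krt5 (chr15:101712906-101713155, minus strand), the leading keratin, and for Ddit3 (chr10:127290543-127290792, plus strand), the gene with the AP-1 letters, which are in capitals and begin 242 bases before the start. A match is a description and not a site in use.
Krt5: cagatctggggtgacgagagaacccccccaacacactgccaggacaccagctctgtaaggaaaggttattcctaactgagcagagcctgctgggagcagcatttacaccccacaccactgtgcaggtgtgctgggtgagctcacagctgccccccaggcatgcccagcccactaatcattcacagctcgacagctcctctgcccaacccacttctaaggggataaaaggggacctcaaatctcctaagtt
Ddit3: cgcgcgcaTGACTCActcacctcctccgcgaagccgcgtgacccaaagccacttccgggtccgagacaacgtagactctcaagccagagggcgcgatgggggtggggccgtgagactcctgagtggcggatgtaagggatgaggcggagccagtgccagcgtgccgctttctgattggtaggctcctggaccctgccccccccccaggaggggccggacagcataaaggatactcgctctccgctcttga

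In lung, 21 of the 24 leading genes were read at 2 CPM or more in at least 1 library, and Krt5, Krt14 and Krt17 were not. The lung comparison uses other libraries, 4 labelled Rel-null against 5 wild-type. Labelled Rel-null lung library 10 has a treatment label that says skin, and it was kept with lung by its title and source. Lung libraries read Clu at 274 to 699 CPM where labelled wild-type and at 174 to 769 CPM where labelled Rel-null. The lung log2 fold change was -0.18 ± 0.52, and the skin one exceeded it by 6.41 ± 1.05. For Spint2 the difference between tissues was 8.60 ± 1.42 and for Plau 3.38 ± 0.62. These genes were chosen by their small p in skin, so the size of such differences is partly built in. Tested across all genes, 0 differences (0%) passed an adjusted p of 0.05 by edgeR. An unadjusted edgeR p under 0.05 was reached by 766, fewer than the 820 expected by chance. DESeq2 called 99 after adjustment. The smallest adjusted p was 0.101, shared by Clu and Spint2. The median lung log2 fold change was -0.16 for the 9 higher genes read in lung and -0.06 for the 12 lower ones. Over the parted genes it was 0.00 for the 351 higher and -0.52 for the 152 lower ones, beside -0.05 for all genes of the same level.

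**Figure D2:**
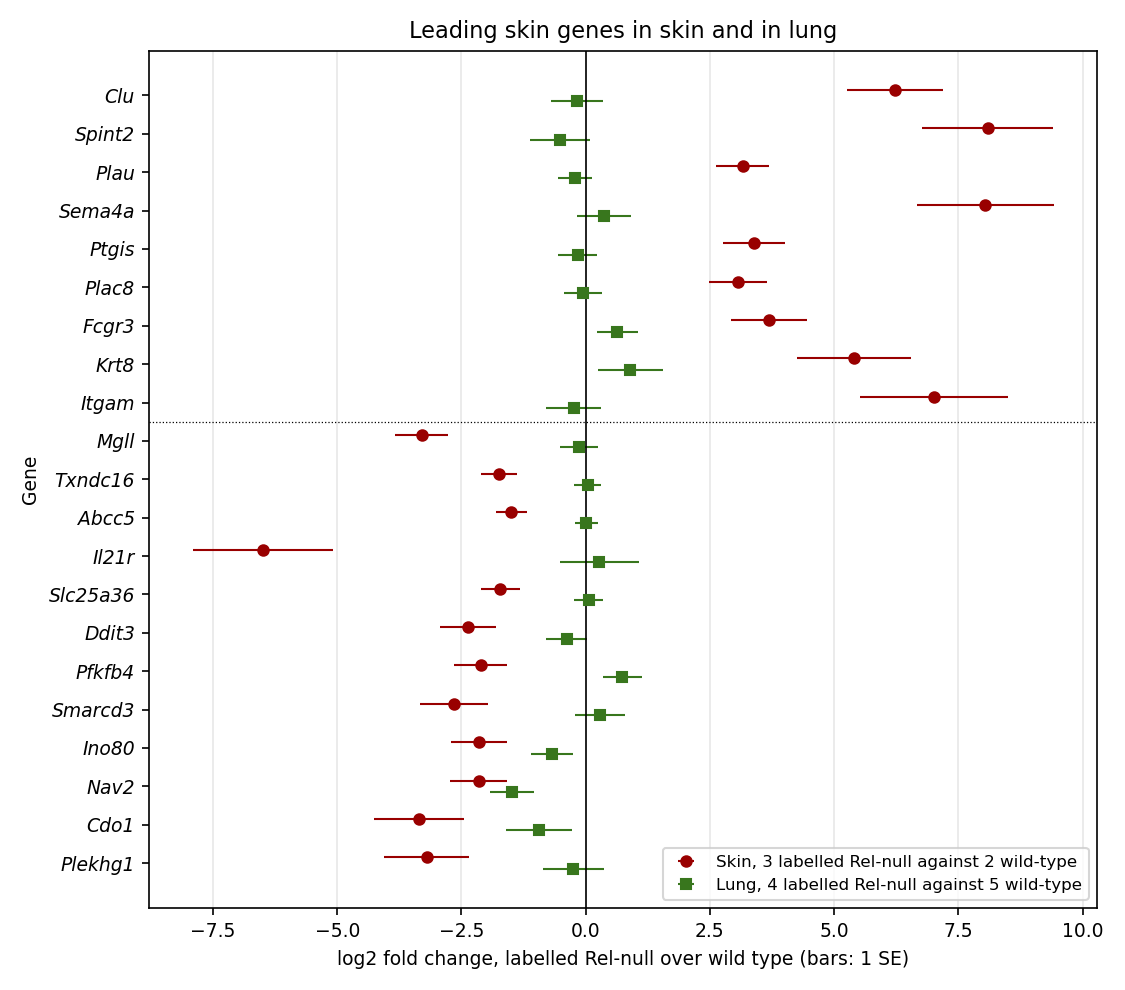
Log2 fold change of labelled Rel-null over wild type, with bars of 1 SE, in skin (circles) and lung (squares) for the 21 leading genes read in lung. The skin values were chosen to be large and the lung values were not, and the lung value of Clu is -0.18 against 6.23 in skin.

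Beyond single genes, 35 lists were described by their counts and medians beside the median of 0.01 for all tested genes. The lists held 672 different genes, of which 627 passed the filter on low counts, so the counts do not cover every member. Genes nearly absent from lung and wild-type skin, such as Krt5, could pass it only with the help of the labelled Rel-null libraries. Their positive sign, and the shares of tested genes given for epithelial lists, are therefore partly built in. No listed gene passed an adjusted p of 0.05. Epithelial genes formed the block with the widest separation. Of 73 genes in 5 lists, 61 were tested, 57 had a positive log2 fold change, 47 were higher without overlap (77.0%, beside 14.8% of all tested genes) and 1, the cytolinker gene Dst, was lower without overlap. Their median log2 fold change was 4.99, with no bound set where a group had no counts.

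Genes of the basal layer stood at summed levels of 459 and 424 CPM in wild-type 11 and 22, and of 2825, 1324 and 2397 CPM in 18, 19 and 20. Perp, a desmosome component, read 0.339 and 8.63 CPM against 119, 119 and 203 CPM, with a log2 fold change of 5.18 ± 1.15, or 8.74 without wild-type 22. Trp63, the transcription factor of basal keratinocytes, overlapped between groups at 0 and 5.11 CPM against 3.54, 1.90 and 0.432 CPM. Genes of the outer epidermis were low, yet they too stood higher in the labelled Rel-null libraries. The list of suprabasal and cornified envelope genes summed to 12.4 and 8.95 CPM in wild type and to 61.2, 67.4 and 60.9 CPM in 18, 19 and 20. Of its 15 genes, 9 were at 0 counts in wild-type 11, 8 in wild-type 22, 8 in 18 and 4 each in 19 and 20. Only 8 were tested, of which 8 had a positive log2 fold change and 4 were higher without overlap. The median was 4.24, or 3.60 with a bound set where a group had no counts. Sprr1a, a precursor of the cornified envelope, read 6.10 and 0.320 CPM against 27.7, 33.7 and 27.3 CPM, and Ivl, involucrin, 0.0847 and 0.639 CPM against 11.9, 6.93 and 6.49 CPM. Krt1 and Flg, by contrast, had no counts in any skin library, Krt10 overlapped between groups and read at most 2.56 CPM, and Lor, loricrin, read 0.798 and 1.87 CPM in 19 and 20 and 0 in the rest.

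Junction genes were higher throughout, with 17 of 17 positive and 16 without overlap, and a median of 4.97, or 7.48 without wild-type 22. With a bound set where a group had no counts, the median over all 5 libraries was 4.34. Cdh1, E-cadherin, read 4.66 and 1.28 CPM against 270, 131 and 317 CPM (6.20 ± 1.50). Cldn4, a tight-junction claudin, read 14.5 and 1.60 CPM against 511, 272 and 419 CPM (5.54 ± 1.64). F11r, a junctional adhesion molecule, was read well in wild type, at 28.6 and 7.03 CPM, against 101, 67.5 and 79.1 CPM (2.17 ± 0.58, or 3.59 without wild-type 11). The same order held in the list of simple keratins and epithelial specifiers, with 16 of 16 positive. Epcam, an adhesion molecule of epithelia, read 0.127 and 0.320 CPM against 96.4, 48.6 and 89.9 CPM. Grhl2, a transcription factor of epithelial identity, had no wild-type counts and was at least 56.1-fold higher. Krt6a, a keratin induced by wounding, read 9.95 and 0.959 CPM against 321, 88.3 and 119 CPM, with library 18 again highest.

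In all 5 epithelial lists the mean log2(CPM + 1) of each labelled Rel-null library lay above both wild-type values. In the suprabasal list library 18 stood lower than its group, at 1.84 against 2.62 in 19 and 2.46 in 20. Wild-type 11 and 22 read 0.755 and 0.775 there. Whether Rel bears on these lists was not tested. The part that cells other than fibroblasts play in the single-gene results was not tested. Fibroblast identity genes were high in every library, at a mean log2(CPM + 1) of 7.73 and 7.90 in wild type and 8.04, 8.58 and 8.41 in 18, 19 and 20. Of the 17 genes, 9 had a positive log2 fold change and 8 a negative one. Without overlap, 4 were higher (23.5%, beside 14.8% of all tested genes) and 2 lower (11.8%, beside 10.3%). Vim, the intermediate filament of mesenchymal cells, was lower without overlap, though nearly level with wild-type 11. It read 2126 and 3616 CPM against 2023, 2011 and 1929.7 CPM. Lum, the proteoglycan lumican, was higher without overlap at 27.0 and 22.4 CPM against 112, 104 and 272 CPM (2.72 ± 0.66). Crabp1, which binds retinoic acid, read 138 and 114 CPM against 1297, 525 and 661 CPM (2.71 ± 1.28, adjusted p = 0.784).

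**Figure D3:**
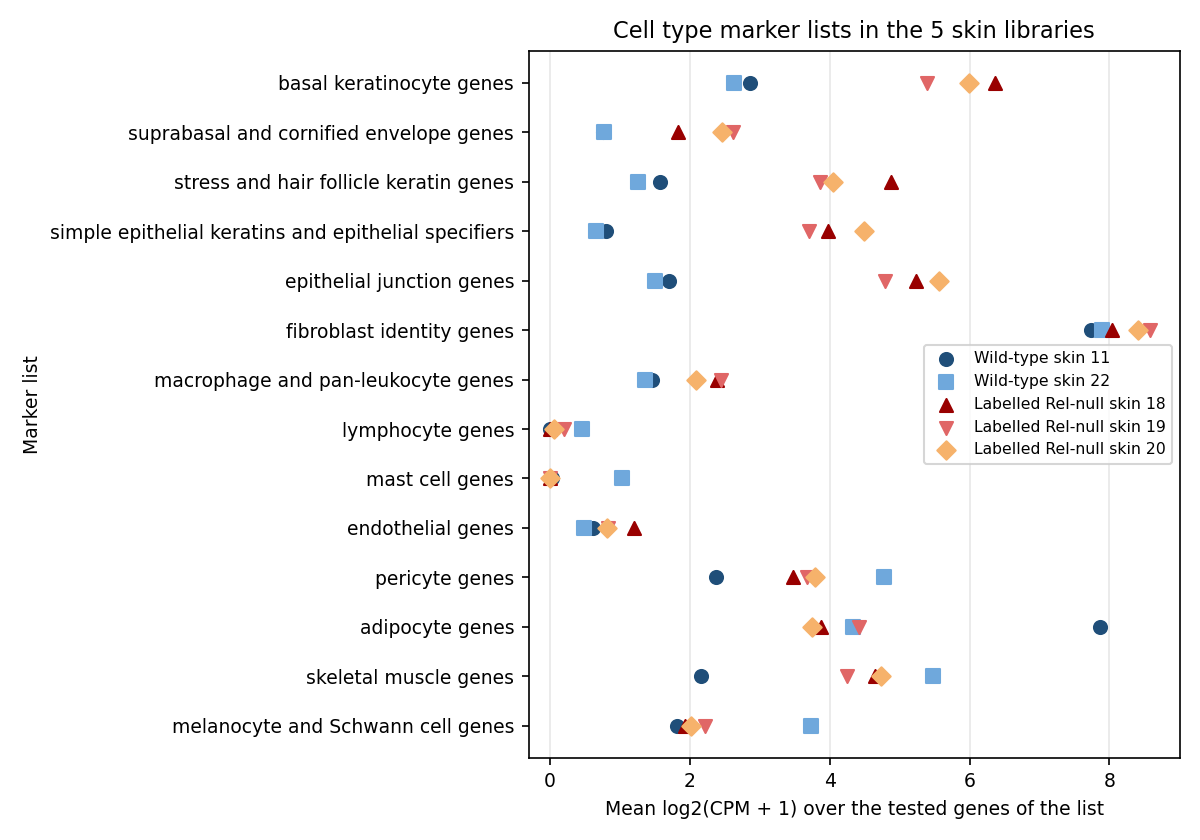
Mean log2(CPM + 1) over the tested genes of each cell type list, with 1 marker per skin library. The 5 epithelial lists part the groups, whereas adipocyte genes stand out in wild-type 11 and Schwann cell and muscle genes are highest in wild-type 22.

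The wild-type libraries each carried other cell types in unequal amounts. Adipocyte genes summed to 2841 CPM in wild-type 11, against 436 CPM in wild-type 22 and 125 to 371 CPM in the labelled Rel-null libraries. The defining markers were clear there, with the hormone gene Adipoq at 36.9 CPM and the lipid-droplet gene Plin1 at 129 CPM, both at most 0.320 CPM elsewhere. All 6 tested adipocyte genes had a negative log2 fold change, and 3 were lower without overlap, beside 10.3% of all tested genes. Lpl, lipoprotein lipase, read 1229 and 384 CPM against 60.4, 268 and 149 CPM, and Cebpa, an adipocyte transcription factor, 163 and 16.3 CPM against 7.98, 15.3 and 16.9 CPM. Against wild-type 22 alone the adipocyte medians were between -0.84 and -0.30, and against wild-type 11 between -4.30 and -3.29. The lipid-handling list showed the same dependence, with medians of -1.10 for library 18 and -1.36 for 20 against wild-type 11, and of -0.09 to 0.43 for the 3 libraries against 22. Mgll was lower against each of them.

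Schwann cell and melanocyte genes summed to 635 CPM in wild-type 22 and to 49.8 to 83.2 CPM elsewhere, led by the growth factor receptor gene Ngfr at 393 CPM and with Sox10, a neural crest regulator, at 71.9 CPM. The pigment genes Tyr, Tyrp1 and Dct were at 0 in all 5 libraries. Skeletal muscle genes summed to 1374 CPM in wild-type 22 and 607 to 935 CPM in the labelled Rel-null libraries, but to 104 CPM in wild-type 11. Macrophage genes were low in every library, with sums of 151 and 55.0 CPM against 194, 213 and 144 CPM. Of 21 such genes, 15 had a positive log2 fold change, 7 were higher without overlap (33.3%, beside 14.8% of all tested genes), and the median was 1.00, or 2.08 without wild-type 11 and 3.00 without wild-type 22. Lymphocyte and mast cell genes were at or near 0 throughout, with Cd79a absent and Cd3e at most 0.865 CPM.

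Collagen genes leaned lower, and the size depended on the wild-type library. Of 33 tested genes in 3 lists, 26 had a negative log2 fold change, 11 were lower without overlap (33.3%, beside 10.3% of all tested genes) and 1 was higher without overlap (3.03%, beside 14.8%), and the median was -1.59. Wild-type 22 lay above all 3 labelled Rel-null libraries for 26 of the 33 genes, wild-type 11 for 11 of them, and 22 exceeded 11 for 30. The fibrillar list had medians of -0.74, 0.43 and -0.30 for 18, 19 and 20 against wild-type 11, and of -2.46, -2.04 and -2.67 against wild-type 22. Col1a1, the main chain of type I collagen, overlapped at 8491 and 13054 CPM against 3643, 10009 and 5985 CPM.

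Genes lower against both wild-type libraries occurred in each list, with 3 of 10 tested fibrillar collagens, 3 of 12 basement-membrane and network collagens, and 5 of 11 in the list of fibril-associated collagens and collagen VI. Col4a1 read 1500.0 and 3049 CPM against 707, 880 and 903 CPM (-1.45 ± 0.42, or -0.86 without wild-type 22), and its partner Col4a2 1665 and 2169 CPM against 668, 979 and 847 CPM (-1.21 ± 0.43). Col15a1 read 125 and 284 CPM against 55.3, 22.3 and 16.8 CPM (-2.70 ± 0.79). Col5a2, a fibrillar chain that helps set fibril diameter, read 1244 and 4114 CPM against 793, 940 and 818 CPM (-1.66 ± 0.49, or -0.55 without wild-type 22). The collagen VI chains ranged widely among the labelled Rel-null libraries. Col6a1 read 1427 and 2119.6 CPM against 177, 982 and 497 CPM, and Col6a3 374 and 2978 CPM against 20.5, 347 and 148 CPM, with library 18 lowest. Col18a1, by contrast, was high in wild-type 22 alone, at 1512 CPM, against 47.0 CPM in wild-type 11 and 122, 66.2 and 91.7 CPM in the labelled Rel-null libraries. Its log2 fold change of -3.06 ± 0.87 turned to 0.99 without library 22.

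**Figure D4:**
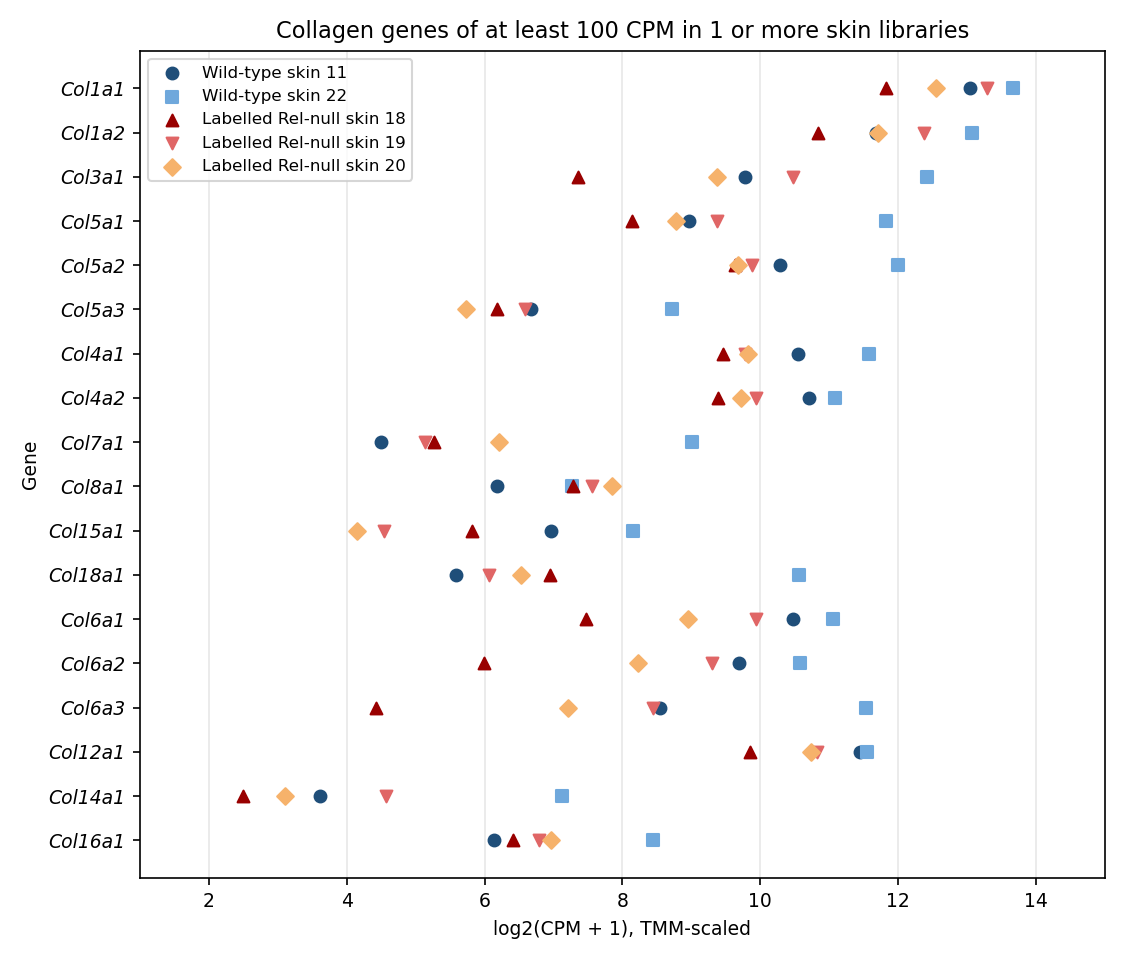
Level of the 18 collagen genes that reached 100 CPM in 1 or more skin libraries, as log2(CPM + 1) with 1 marker per library. Wild-type 22 is the highest marker for most genes, for example 1512 CPM of Col18a1, while wild-type 11 often lies among the labelled Rel-null libraries.

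Of 38 matrix glycoprotein and proteoglycan genes, 10 were lower without overlap (26.3%, beside 10.3% of all tested genes) and 7 higher (18.4%, close to the 14.8% of all). Fn1, fibronectin, read 2774 and 8877 CPM against 1066, 1878 and 1894 CPM (-1.85 ± 0.71), and Fbn1, the fibrillin of elastic microfibrils, 835 and 1811 CPM against 218, 518 and 521 CPM (-1.66 ± 0.57). Without wild-type 22 these fold changes were -0.79 for Fn1 and -0.999 for Fbn1. Mfap4, another microfibril protein, went the other way at 0.169 and 12.1 CPM against 40.8, 236 and 91.0 CPM (4.53 ± 1.32, from 3.38 without wild-type 11 to 9.45 without 22). Mmp9, a gelatinase, read 13.2 and 0.959 CPM against 106, 271 and 191 CPM (4.62 ± 1.41, or 7.66 without wild-type 11). The contractile list had a median of 0.01 and 8 of 16 genes positive, but it lay on opposite sides of the wild-type libraries, with medians of 0.80, 0.61 and 0.60 for 18, 19 and 20 against wild-type 11 and of -0.25, -0.23 and -0.43 against 22. The list of TGF-beta ligands, receptors and targets had a median of -0.03, which was 0.56 without wild-type 11 and -0.23 without 22.

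NF-kappaB target cytokines and chemokines stood apart in wild-type 22, where they were low. Their sum was 2241 CPM in wild-type 22, against 21986 CPM in wild-type 11 and 10777, 26971 and 15983 CPM in 18, 19 and 20. The list had a median log2 fold change of 0.67, with 25 of 36 genes positive (69.4%, beside 50.5% of all tested genes) and 10 higher without overlap (27.8%, beside 14.8%). Against wild-type 11 the medians of the 3 libraries were -0.22, 0.17 and 0.00, and against wild-type 22 they were 2.57, 2.50 and 2.43. Cxcl5, a neutrophil attractant, read 3229 and 38.0 CPM against 857, 3392 and 2448 CPM, and Ccl2, a monocyte attractant, 1628 and 142 CPM against 1337, 1956 and 1360.0 CPM. Both overlapped between the groups. In library 18, Cxcl5 was below 19 and 20, while Ccl2 was close to 20. Whether Rel bears on these levels was not tested.

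A few genes of the pathway were higher than in either wild-type library. Tnfaip3, the feedback inhibitor A20, read 19.6 and 5.75 CPM against 34.5, 75.9 and 68.2 CPM (2.21 ± 0.82, or 3.42 without wild-type 11), and Icam1, an adhesion molecule for leukocytes, 11.8 and 8.31 CPM against 14.9, 36.5 and 22.8 CPM (1.28 ± 0.39). Tnf had no wild-type counts and was at least 36.9-fold higher, at 7.68, 0.920 and 3.82 CPM. The inhibitor, kinase and feedback list had a median of -0.08, with 3 of 21 genes higher and 3 lower without overlap (14.3% each, near the 14.8% and 10.3% of all tested genes). Interferon-stimulated genes had a median of 0.09, which was 2.74 without wild-type 22. That value rests on wild-type 11 alone, where 15 of the 35 genes had 0 counts, against 1 in wild-type 22. In 18, 19 and 20 there were 2, 1 and 1 such genes. With 0.5 CPM added, the list medians for 18, 19 and 20 were 1.59, 0.81 and 0.64 against wild-type 11. Against 22 they were 0.33, -0.65 and -1.19. Irf9, which carries the interferon signal to its target genes, was lower at 35.1 and 32.9 CPM against 18.1, 9.33 and 5.91 CPM (-1.61 ± 0.49, adjusted p = 0.521).

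Cell-cycle genes were higher against each wild-type library. Of 37 genes, 31 had a positive log2 fold change, 17 were higher without overlap (45.9%, beside 14.8% of all tested genes) and 0 lower (beside 10.3%), with a median of 0.86. The medians lay between 0.69 and 1.18 for each of the 6 pairs of a labelled Rel-null and a wild-type library, beside -0.14 to 0.29 for all genes. Pcna, the replication clamp, read 42.5 and 45.7 CPM against 129, 78.5 and 95.1 CPM (1.19 ± 0.48), and Mcm2, a helicase subunit, 7.11 and 28.4 CPM against 76.5, 47.4 and 49.9 CPM (1.72 ± 0.69, from 1.06 without wild-type 11 to 3.02 without 22). Mki67 did not follow, at 5.46 and 49.2 CPM against 23.5, 6.87 and 12.6 CPM. It was named after its values were seen.

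Among metabolic lists, cholesterol and fatty acid synthesis had 25 of 30 genes positive, 9 higher without overlap (beside 14.8% of all tested genes) and a median of 0.51, which was 1.28 without wild-type 11 and 0.13 without 22. Mvk, mevalonate kinase, read 16.5 and 13.4 CPM against 50.0, 91.8 and 49.2 CPM (2.08 ± 0.58), and Sc5d, a late enzyme of the pathway, 88.1 and 59.5 CPM against 127, 169 and 150 CPM (1.01 ± 0.33). The list median against wild-type 11 was -0.35, 0.49 and 0.07. Glycolysis and hypoxia genes were mixed, with 12 of 27 higher without overlap (44.4%, beside 14.8% of all tested genes) and 4 lower (14.8%, beside 10.3%). Hk2, a hexokinase, read 49.9 and 55.3 CPM against 117, 75.7 and 98.1 CPM (0.88 ± 0.40), whereas Pfkp, a phosphofructokinase, read 79.9 and 84.1 CPM against 46.8, 50.7 and 33.9 CPM (-0.90 ± 0.34). Of the unfolded protein response genes, 4 of 20 were higher and 1, Ddit3, was lower without overlap, where 14.8% and 10.3% of all tested genes were. Creld2, an endoplasmic reticulum chaperone gene, read 29.1 and 38.4 CPM against 70.3, 57.3 and 54.3 CPM (0.85 ± 0.36), opposite to Ddit3.

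**Figure D5:**
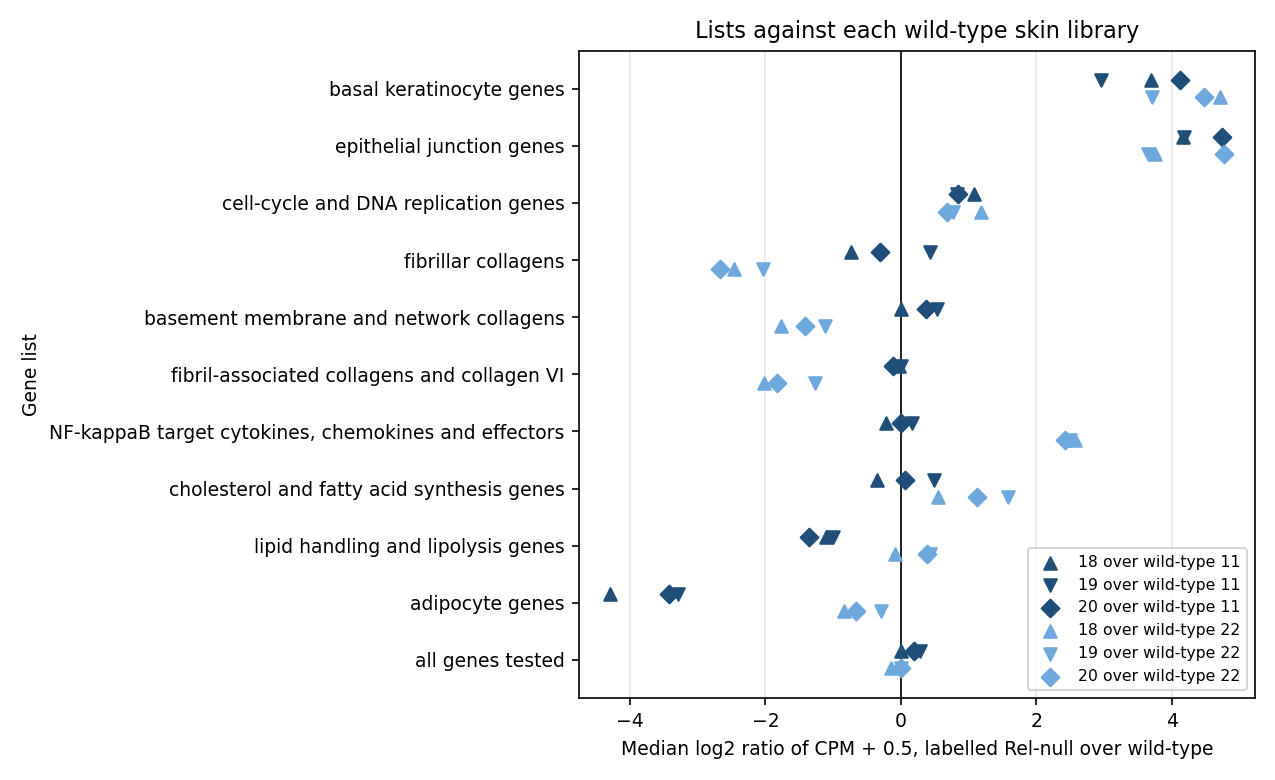
Median over the genes of a list of the log2 ratio (0.5 CPM added) of each labelled Rel-null library to wild-type 11 (dark) and to wild-type 22 (light). The epithelial and cell-cycle medians lie above 0 and the adipocyte medians below 0 against both wild-type libraries, while the medians of the 3 collagen lists run from -0.74 to 0.53 against wild-type 11 and from -2.67 to -1.13 against 22.

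The labelled Rel-null libraries also differed among themselves. Among 6908 genes with a mean of 20 CPM or more over the skin libraries, the genes with the highest ratios of 18 to the mean of 19 and 20 were Rps3a3, Ifit3, Meg3, Krt16, Ttn and Plin4. Ifit3, an interferon-induced gene, read 118 CPM in 18 against 4.36 and 3.17 CPM, and Meg3, an imprinted non-coding RNA, 253 CPM against 28.2 and 41.2 CPM. At the other end 9 genes had 0 counts in 18. They included Aspn, a matrix proteoglycan read at 78.3 and 35.5 CPM in 19 and 20, Cygb, a globin of fibroblasts read at 54.9 and 35.6 CPM, and Parg, which removes poly(ADP-ribose), at 22.7 and 24.1 CPM. Wild-type libraries read these 3 genes at 17.2 to 530 CPM. Library 18 is the one nearly without Rel and also the labelled Rel-null library with the most missing genes, and these features cannot be told apart in 1 library.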

How the data were processed

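RNA was sequenced from 14-day explant cultures. The authors deposited raw read counts per Ensembl gene, and the tools listed in the submitters' processing notes, without their roles, are STAR 2.4.2a, Trimmomatic 0.33 and FastQC 0.11.2, with the build GRCm38. Per the labels, the library kit was directional. Which counter, strand setting and annotation were used is not given in the sources used here, so genes that overlap or have near-identical copies are uncertain. Symbols and coordinates came from GENCODE M21, which held 48435 of 48795 identifiers (360 did not match).

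Counts were fitted with edgeR 4.0.16 under R 4.3.3: filterByExpr, TMM factors, 1 quasi-likelihood model of all 14 libraries with 4 group means, F tests and Benjamini-Hochberg adjustment at 0.05. With only 2 wild-type skin libraries, the spread was estimated over all groups together. DESeq2 1.42.0 and limma-voom (limma 3.58.1) were alternatives, besides other factors and filters, thinning and leaving out each library. The edgeR step was tested on simulated data. These had no tissue differences and a far smaller spread than the real data, whose fitted common dispersion was 0.948. That test therefore checked the computation, and not how edgeR behaves at the spread of these libraries. A fold against a group with no counts at all is a bound, computed with 3 counts over that group. Fitted log2 fold changes and list medians are not bounded in this way, unless the text says so. Counting intervals are exact, at the 95% level, and like the bounds cover counting error only, since reads are not independent molecules.

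Named genes were the NF-kappaB subunits, the 12 protein-coding genes of smallest p in each direction without overlap and with 5 CPM in the higher group, the 3 of smallest p and the 3 most abundant in each list, cell type markers, and the 6 genes at each end of the ratio of library 18 to 19 and 20. Genes outside this rule are marked in the text. The libraries compared and the gene lists were chosen with earlier results of these data known.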

Additional observations from a re-analysis of the deposited data

Results flagged for a closer look

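Igfbp3, a carrier of insulin-like growth factors, differed in opposite directions in the tissues. This gene was picked by searching 57 genes of the text for groups that part in opposite directions in skin and lung. The lack of overlap given here is therefore the rule of choice and lends no support. Igfbp3 is given as a description. It read 4.19 and 55.6 CPM in wild-type skin 11 and 22 and 149, 98.4 and 134 CPM in skin 18, 19 and 20, so that every labelled Rel-null skin library was above both wild-type ones. In lung, every labelled Rel-null library (64.4 to 467 CPM) was below every wild-type one (494 to 781 CPM). The log2 fold changes were 2.12 ± 0.82 in skin and -1.17 ± 0.57 in lung, and their difference was 3.29 ± 1.00, with an edgeR adjusted p of 0.858, so the difference did not pass the test across all genes. The skin value depended on 1 library, at 1.23 without wild-type 11 and 4.92 without wild-type 22. Skin groups of 2 and 3 libraries were too small to be searched for single outlying libraries.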

How the results depend on the processing

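No paired analysis was possible because the groups share no replicate numbers. Against 0 genes called in skin by edgeR, the count was 3 with upper-quartile factors, 58 with no filter on low counts, 145 by DESeq2, 300 by limma-voom, 2 from the skin libraries alone, 3 after thinning to library 22, 55 with 18 as the only labelled Rel-null library, 87 without the 4 libraries with the most missing genes, and 0 to 421 when each library was left out. DESeq2 and limma-voom shared 7 calls. The highest was without wild-type skin 22, and leaving out wild-type skin 11 gave 5, lung 7 labelled Rel-null 18, wild-type lung 1 6 and skin 20 labelled Rel-null 2. The difference between tissues had 31, 99, 174, 31 and 31 calls with no filter, by DESeq2, by limma-voom, with 18 alone and without the 4 libraries, and 0 to 370 with each library left out, most without wild-type skin 22 and 9 without lung 7. The 351 higher and 152 lower parted genes became 2040 and 1544 with no gap required, 183 and 44 with a 4-fold gap, 143 and 64 at 20 CPM, 186 and 90 with a count required in every library, 1317 and 1422 with 18 alone, and 426 to 1893 and 220 to 950 with each skin library left out. At 1 CPM there were 544 higher genes. The higher count was 993 without wild-type 11 and 1893 without 22, the lower 950 and 872, and 239 and 295 without 18 and 19. Fewer libraries make the rule for parted genes easier to meet, so the rise of those counts with libraries left out is partly built in. The cause of the other shifts was not tested. Of 57 genes with a log2 fold change in the text or among the leading genes, 54 kept their direction under all 24 alternatives. This was largely built in, since the leading genes were chosen without overlap. Leaving out a lung library also hardly touches the skin means. Without the 4 libraries Rel turned to 0.022 and Cebpa to 0.064. Col18a1 ranged from -3.98 to 0.99 with each library left out, turning without wild-type 22. List medians moved by more than the spread between libraries under 1 or more alternatives for 31 of 35 lists. Depth limits genes under 0.959 CPM in library 22, where 3 counts lie.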
